A study of Mus musculus with 20 samples.

Results

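The genes described here are 10 that are associated with ST2+ effector Treg cells of the tissue type: Il1rl1, Klrg1, Gata3, Areg, Batf, Prdm1, Irf4, Nfil3, Rora and Pparg. They were located by gene symbol, and all 10 were found in both deposited count tables, which list 16740 genes for pooled spleen and peripheral lymph nodes (pLNs) and 16784 genes for mesenteric lymph nodes (mLN). RNA sequencing was performed on 20 sorted samples of C57BL/6 mice that were 14 weeks old. Treg cells (CD4+Foxp3+, sorted as CD4+YFP+) and CD4+Foxp3- cells (sorted as CD4+YFP-) were compared between WT mice and Tet2/3fl/flFoxp3Cre mice, called DKO, in 2 libraries per group from pooled spleen and pLNs and in 3 libraries per group from mLN. The WT mice carry the same Foxp3Cre allele without the floxed genes. The YFP-Cre fusion is made from the Foxp3 locus, so Tet2 and Tet3 are deleted in cells that express Foxp3 or have expressed it, and a cell that lost Foxp3 after deletion would fall into the CD4+Foxp3- gate. The WT label thus names a Cre-bearing control, and the 2 DKO mice of the spleen and pLN set were littermates that gave both the Treg and the CD4+Foxp3- cells. One of these littermates had the more severe splenomegaly, and the labels do not show which replicate it is, so a value carried by only 1 DKO replicate of spleen and pLNs cannot be told apart from a difference in disease severity.

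Tet2 and Tet3 oxidize the methyl group of 5-methylcytosine in DNA and thereby promote demethylation. ST2, the product of Il1rl1, is the receptor for the alarmin IL-33, and Treg cells that carry ST2 and the lectin-like receptor KLRG1 are the effector Treg cells typical of non-lymphoid tissue and of activated lymphoid tissue. Gata3, Batf, Irf4, Prdm1 (Blimp-1), Rora and Pparg encode transcription factors linked to the formation or tissue residence of such cells, Nfil3 encodes a basic leucine zipper factor, and Areg encodes amphiregulin, a ligand of the EGF receptor made by these cells during tissue repair. The 10 genes were chosen with measured values of these libraries in view. Which values were used is not recorded, so the difference between DKO and WT Treg cells, and the interaction that contains it, are given below as a description without p values, and p values of the other comparisons are not independent evidence for the set.

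The libraries held between 13525932 and 15253141 counted reads in spleen and pLNs and between 9998478 and 15449158 in mLN, and 3 counts, the limit below which a level is read as not detected, corresponded to 0.172 to 0.241 and 0.203 to 0.299 CPM (counts scaled to library size). Replicates were not duplicates of each other, but DKO replicates differed more than WT replicates: the chi-square per degree of freedom between 2 libraries of a group ranged from 3.83 to 8.89 in WT groups and from 15.8 to 92.8 in DKO groups. Foxp3 was between 153 and 419 CPM in every Treg library and between 0.211 and 2.75 CPM in every CD4+Foxp3- library, and the sum of 5 T cell markers lay between 3120 and 5020 CPM in all libraries, so the gates matched their labels. Counts over the whole genes Tet2 and Tet3 did not show a loss in DKO Treg cells. Tet2 was 1.11 to 2.08 CPM in WT Treg cells and 2.05 to 8.01 CPM in DKO Treg cells of spleen and pLNs, and 10.4 to 10.8 against 7.69 to 12.8 CPM in mLN. Tet3 was 30.6 to 31 CPM in WT and 38.1 to 61 CPM in DKO Treg cells of spleen and pLNs, and 69 to 86.5 against 48.4 to 73.3 CPM in mLN; reads outside the deleted exons are included in these counts, so they do not check the deletion. Levels below are CPM after TMM normalization unless TPM is named, and a gene was called when its adjusted p was at most 0.05 and its fold change at least 1.5.

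The starts of the genes differ in the number of CG pairs, the sites at which TET enzymes act. RefSeq windows (build GRCm38.p6) were found for 9 of the 10 genes, 12 windows in all, and only the 250 bases before each start were used. The 2 starts of Il1rl1 in the RefSeq table are shown because Il1rl1 had the largest difference of the set between DKO and WT Treg cells of spleen and pLNs, and the start of Areg is shown because Areg was higher in DKO Treg cells; capitals mark each CG pair, and all 3 lie on the plus strand.
Il1rl1, first start, chr1:40429320-40429569: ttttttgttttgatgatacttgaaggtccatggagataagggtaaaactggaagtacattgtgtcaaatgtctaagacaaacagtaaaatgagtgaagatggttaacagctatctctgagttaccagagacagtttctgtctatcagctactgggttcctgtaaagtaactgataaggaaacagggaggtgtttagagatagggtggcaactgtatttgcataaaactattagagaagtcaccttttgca
Il1rl1, later start, chr1:40439379-40439628: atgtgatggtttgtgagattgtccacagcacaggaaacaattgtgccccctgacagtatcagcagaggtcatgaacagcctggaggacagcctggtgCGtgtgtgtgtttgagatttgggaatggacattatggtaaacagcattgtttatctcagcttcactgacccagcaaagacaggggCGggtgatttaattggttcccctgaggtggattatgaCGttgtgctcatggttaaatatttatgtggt
Areg, chr5:91139349-91139598: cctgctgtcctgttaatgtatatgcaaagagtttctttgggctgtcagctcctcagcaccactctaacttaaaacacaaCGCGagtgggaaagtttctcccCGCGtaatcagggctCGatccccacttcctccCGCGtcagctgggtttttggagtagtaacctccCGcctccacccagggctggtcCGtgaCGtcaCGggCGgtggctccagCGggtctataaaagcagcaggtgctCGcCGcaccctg

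The first window of Il1rl1 held 0 CG pairs, as few as 7.87% of all 32851 windows, and the second held 3, a number that 37.8% of all windows do not exceed. The median window held 6. Areg and Prdm1 held 15 each, Batf 7, Irf4 11, Gata3 19, Rora 26 and Nfil3 43, and the 3 windows of Pparg held 38, 12 and 2. The 2 windows of Il1rl1 and 1 of Pparg were thus below the median, and the other windows were above it. Short motifs were searched on both strands. The GATA motif (AGATAA or TGATAA) matched 2 times in the first Il1rl1 window, 1 time in the second and 1 time in Batf, and 16.6% of all windows hold it. The AP-1 motif (TGANTCA), to which BATF dimers can bind, matched only in Prdm1 and is in 6.75% of all windows. The ROR motif (AGGTCA) matched in 1 window of Il1rl1, in Nfil3 and in 2 windows of Pparg, against 14.0% of all windows, and the NFIL3 motif (TTATNTAA) matched in 1 window of Pparg, against 3.17%. Matches are letters in a window and were not measured as bound sites.

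**Figure D1:**
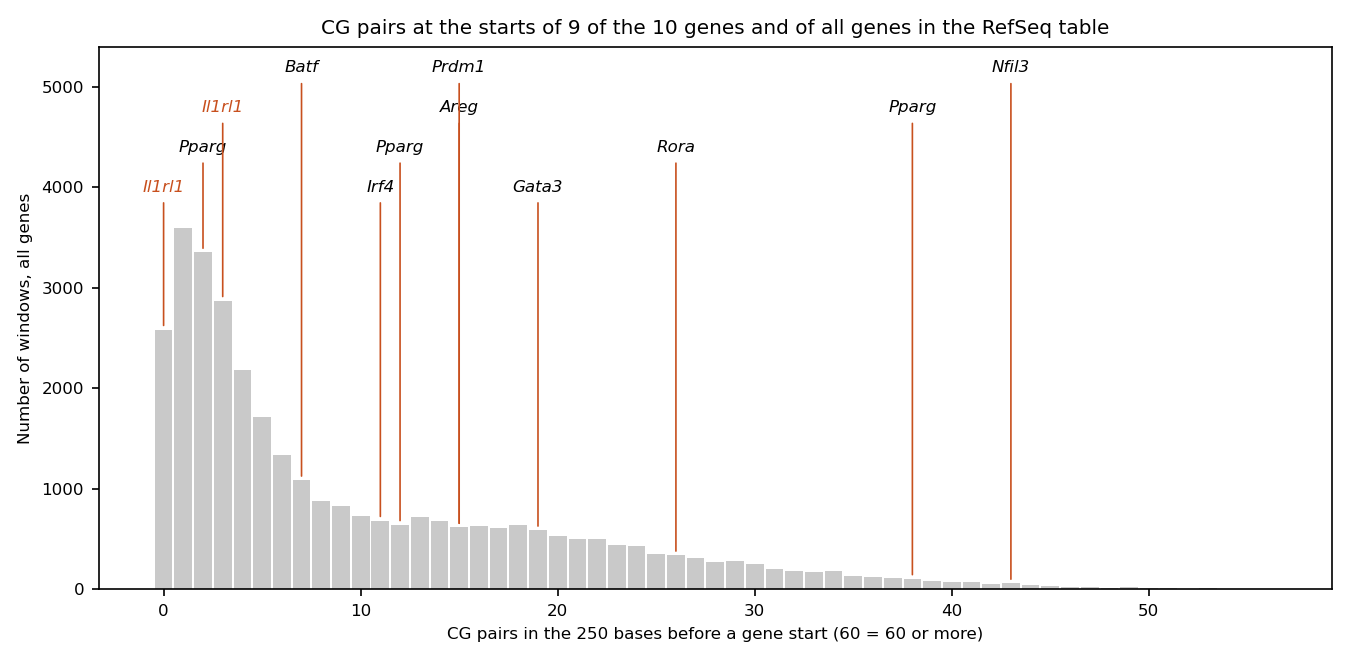
Number of CG pairs in the 250 bases before a gene start (x axis) against the number of RefSeq windows with that count (y axis, grey bars, 32851 windows of all genes). Lines mark the 12 windows of 9 genes. Il1rl1 (orange) sits at 0 and 3, left of the median of 6, while Gata3, Rora and Nfil3 sit at 19, 26 and 43.

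In the mm9 assembly (NCBIM37, GENCODE M1) Il1rl1 spans chr1:40486415-40522260 on the plus strand with 5 annotated transcript starts, of which a count over the gene is the sum, and windows were examined for the 2 RefSeq starts only. Klrg1 lies at chr6:122220614-122232900 on the minus strand and Areg at chr5:91568641-91577458 on the plus strand. The other genes are protein coding and each has its own locus on another chromosome, except that Irf4 and Nfil3 are both on chromosome 13 and Pparg shares chromosome 6 with Klrg1.

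To ask which of the 10 genes mark Treg cells in control mice, their levels were first compared with each other per length, in TPM, in WT Treg cells. Batf was the most abundant, with 184 ± 5.66 TPM (SD, n = 2) in spleen and pLNs and 139 ± 9.50 TPM (SD, n = 3) in mLN, followed by Klrg1 with 82.8 ± 7.64 and 69.3 ± 8.19 TPM. Il1rl1 ranked 5 of 10 in spleen and pLNs at 21.5 ± 2.33 TPM and 7 of 10 in mLN at 10.4 ± 0.566 TPM. Areg at 3.78 ± 0.693 and 3.26 ± 1.01 TPM and Pparg at 1.01 ± 0.351 and 0.288 ± 0.118 TPM were the lowest in each tissue. Each gene's range lay apart from that of its neighbour in this order, except for Gata3 (49.6 to 52.3 TPM) and Irf4 (38.2 to 50.4 TPM) in mLN. The tissues were processed as separate tables, so levels were not tested between them.

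Compared with WT CD4+Foxp3- cells, the members were on the Treg side. Of the 10, 3 were called higher in WT Treg cells of spleen and pLNs (Il1rl1, Klrg1 and Areg) and 0 lower, where 2.48% of all 16357 genes tested were called higher and 1.52% lower. In mLN 9 of 10 were called higher and 0 lower, where 6.91% of 16784 genes were called higher and 3.14% lower, and Pparg was the 1 not called. These comparisons share the WT Treg libraries with the DKO against WT comparison of Treg cells. Klrg1 had the largest fold of those detected in both groups: 81.1 and 72.5 CPM in WT Treg cells against 1.97 and 2.25 CPM in WT CD4+Foxp3- cells of spleen and pLNs, a log2 fold change of 5.18 ± 0.38 (SE; adjusted p = 2.28e-05, edgeR). The mLN levels were 46.3, 55.7 and 52.7 against 0.766, 1.55 and 0.698 CPM, a log2 fold change of 5.61 ± 0.45 (adjusted p = 4.68e-06, edgeR). Il1rl1 was 93.5 and 111 CPM against 6.61 and 3.94 CPM in spleen and pLNs (log2 fold change 4.27 ± 0.28, adjusted p = 1.29e-05, edgeR). The mLN levels were 39.1, 41.2 and 40.5 against 2.47, 3.78 and 2.39 CPM (3.78 ± 0.45, adjusted p = 0.00013, edgeR). Both receptor genes were therefore far above the CD4+Foxp3- level in every WT Treg library.

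Among the transcription factors in mLN, Nfil3 differed most between the WT cell types, with 30.2, 32 and 27.2 CPM in Treg cells and 4.09, 5.4 and 4.79 CPM in CD4+Foxp3- cells (log2 fold change 2.64 ± 0.46, adjusted p = 0.00187, edgeR). Prdm1 followed with 2.06 ± 0.32 (adjusted p = 0.000786), Rora with 1.4 ± 0.25 (adjusted p = 0.00242), Irf4 with 1.08 ± 0.23 (adjusted p = 0.00724), Batf with 0.73 ± 0.17 (adjusted p = 0.0126) and Gata3 with 0.66 ± 0.16 (adjusted p = 0.0129), all from edgeR. The call of Gata3 was lost without WT CD4+Foxp3- replicate 1 (0.60, adjusted p = 0.0601) and that of Batf without WT CD4+Foxp3- replicate 3 (0.67, adjusted p = 0.058) or WT Treg replicate 2 (0.68, adjusted p = 0.052). In spleen and pLNs the same 6 factors had log2 fold changes of 0.32 (Gata3) to 1.28 (Prdm1) between these WT cell types. None of them passed the edgeR test there, with adjusted p values from 0.0516 (Prdm1) to 0.727 (Gata3). Prdm1 was called there by DESeq2 (1.28, adjusted p = 0.0289) and by edgeR with DESeq2's size factors (1.28, adjusted p = 0.0494). With only the 2 WT groups in the fit, 8 of 10 members were called there, among them Batf, Prdm1, Irf4, Nfil3 and Rora. In that fit 2060 of 15034 genes were called, against 654 of 16357 in the fit over 4 groups. The fit over 4 groups takes its spread from the DKO libraries as well.

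Areg was at or under the floor of 3 counts in every WT CD4+Foxp3- library. It had 45 and 39 counts in WT Treg cells of spleen and pLNs and 1 and 0 counts in WT CD4+Foxp3- cells, a ratio of 78.6 after scaling to library size, with an exact 95% counting interval of 13.7 to 3140. In mLN it had 19, 25 and 28 counts against 0, 3 and 1, a ratio of 19.1 with an interval of 7.16 to 72.1. These intervals cover counting error only, and PCR copies are among the counts. The edgeR test gave adjusted p values of 0.00979 and 0.00279, of which the first was lost without either WT Treg or either WT CD4+Foxp3- library (adjusted p from 0.0665 to 0.179) and with filterByExpr (adjusted p = 0.0678). Pparg was near its floor in mLN, with 5, 6 and 2 counts in WT Treg cells and 2, 3 and 4 in WT CD4+Foxp3- cells.

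**Figure D2:**
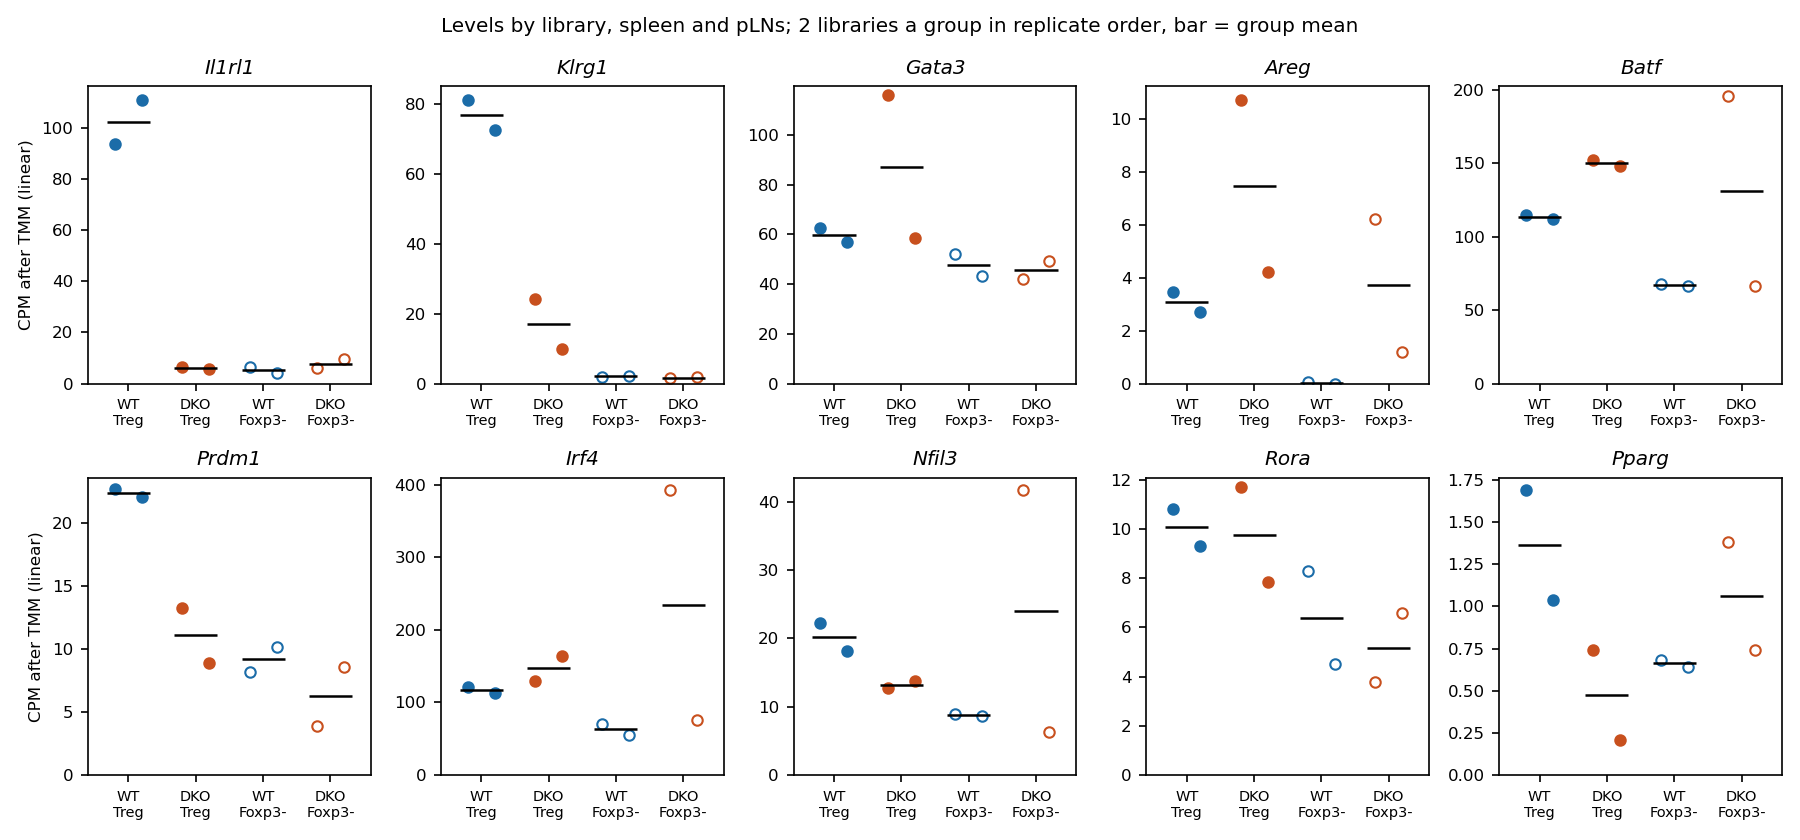
Levels of the 10 genes in pooled spleen and pLNs (y axis, CPM after TMM normalization, linear, starting at 0) in WT and DKO Treg cells (filled points) and CD4+Foxp3- cells (open points), 2 libraries a group, with the group mean as a bar. Il1rl1 is 93.5 and 111 CPM in WT Treg cells and under 10 CPM in all other libraries, and DKO CD4+Foxp3- replicate 1 has the highest Irf4 (393 CPM) and Nfil3 (41.8 CPM).

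In DKO Treg cells the members did not move together. Of the 10, 2 were called lower than in WT in spleen and pLNs (Il1rl1 and Klrg1) and 0 higher, where 0.605% of all genes tested were called lower and 1.14% higher. In mLN 3 of 10 were called lower (Il1rl1, Klrg1 and Prdm1) and 2 higher (Areg and Batf), where 3.43% and 8.50% of all genes were called lower and higher. The genes are treated as selected on this comparison, so the counts describe the choice and nothing is read from them. The median log2 fold change of the 10 was -0.33 in spleen and pLNs and -0.36 in mLN, which likewise describes the chosen genes only. In such bulk libraries, fewer cells that express a gene and less of its RNA per cell cannot be told apart.

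Il1rl1, the IL-33 receptor gene, had the largest fold difference of the 10 in spleen and pLNs and the next largest after Klrg1 in mLN. It was 93.5 and 111 CPM in WT Treg cells of spleen and pLNs and 6.58 and 5.87 CPM in DKO Treg cells, a 16.4-fold lower level (log2 fold change -4.03 ± 0.27). The mLN libraries held 39.1, 41.2 and 40.5 CPM in WT, compared with 0.917, 6.97 and 3.36 CPM in DKO Treg cells, 10.6-fold lower (-3.41 ± 0.44). The groups did not overlap in either tissue, and DKO replicate 2 held the most of the DKO Treg libraries in mLN. DKO Treg libraries came down to the range of CD4+Foxp3- cells, which was 3.94 to 9.56 CPM in spleen and pLNs and 2.39 to 4.01 CPM in mLN over both genotypes, with 1 DKO Treg library of mLN below that range and 1 above it. CD4+Foxp3- cells of spleen and pLNs held 6.61 and 3.94 CPM of Il1rl1 in WT, compared with 6.09 and 9.56 CPM in DKO (log2 fold change 0.56 ± 0.27, adjusted p = 0.422, edgeR), and without DKO replicate 1 in both cell types, an exclusion chosen after seeing the data, it was called higher (0.85, adjusted p = 0.00771). Those of mLN held 2.47, 3.78 and 2.39 CPM against 2.84, 4.01 and 2.65 CPM (0.13 ± 0.48, adjusted p = 0.959, edgeR), so that the genotypes overlapped in both tissues.

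Klrg1 encodes an inhibitory receptor for cadherins that marks terminally differentiated effector lymphocytes. Klrg1 was 81.1 and 72.5 CPM in WT Treg cells of spleen and pLNs, compared with 24.1 and 9.97 CPM in DKO, 4.49-fold lower (log2 fold change -2.17 ± 0.31). The mLN libraries held 46.3, 55.7 and 52.7 CPM in WT, compared with 2.44, 7.83 and 2.43 CPM in DKO, 12-fold lower (-3.59 ± 0.38). The groups did not overlap, but unlike Il1rl1 every DKO Treg library stayed above every CD4+Foxp3- library of its tissue, which lay between 1.44 and 2.25 CPM in spleen and pLNs and between 0.619 and 1.55 CPM in mLN. The call in spleen and pLNs was lost without WT Treg replicate 1 (-2.09) or WT Treg replicate 2 (-2.25) and with edgeR's filterByExpr (-2.16). In CD4+Foxp3- cells the log2 fold changes were -0.36 ± 0.43 (adjusted p = 0.802) and -0.32 ± 0.59 (adjusted p = 0.826, edgeR). NK cells also carry KLRG1, and the summed level of 6 NK cell markers moved the other way in Treg cells, from 9.13 to 10.1 CPM in WT to 92.2 to 125 CPM in DKO in spleen and pLNs and from at most 11.4 CPM to between 74.9 and 163 CPM in mLN. Klrb1c alone was 110 and 86.4 CPM in the DKO Treg libraries of spleen and pLNs and 155, 72.3 and 110 CPM in those of mLN. Most of each sum was thus this 1 gene. Of the 6 markers, Ncr1 and Klrb1c were called higher in DKO Treg cells of spleen and pLNs, and only Klrb1c in mLN. The part of NK cell RNA in the Klrg1 level was not tested.

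Areg, the secreted effector of the set, was higher in DKO Treg cells than in WT, with a call in mLN. There it was 1.56, 2.07 and 2.75 CPM in WT, compared with 8.17, 8.62 and 10.7 CPM in DKO Treg cells, 4.32-fold higher (log2 fold change 2.11 ± 0.50), without overlap. The call was lost without WT Treg replicate 1 (1.93) or WT Treg replicate 2 (2.09). Spleen and pLN libraries held 3.46 and 2.71 CPM in WT, compared with 10.7 and 4.23 CPM in DKO (1.28 ± 0.65), not called, though it was called without DKO CD4+Foxp3- replicate 1 or 2 (1.28 in each) and the difference was 0.45 without DKO Treg replicate 1. Kit, a mast cell marker, was 20.5, 2.37 and 17.3 CPM in DKO and 2.05 to 2.81 CPM in WT Treg cells of mLN, while Cpa3, another, was at 0 counts in all 3 DKO libraries. Areg thus differed from Il1rl1 and Klrg1 in direction within the same DKO Treg libraries.

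**Figure D3:**
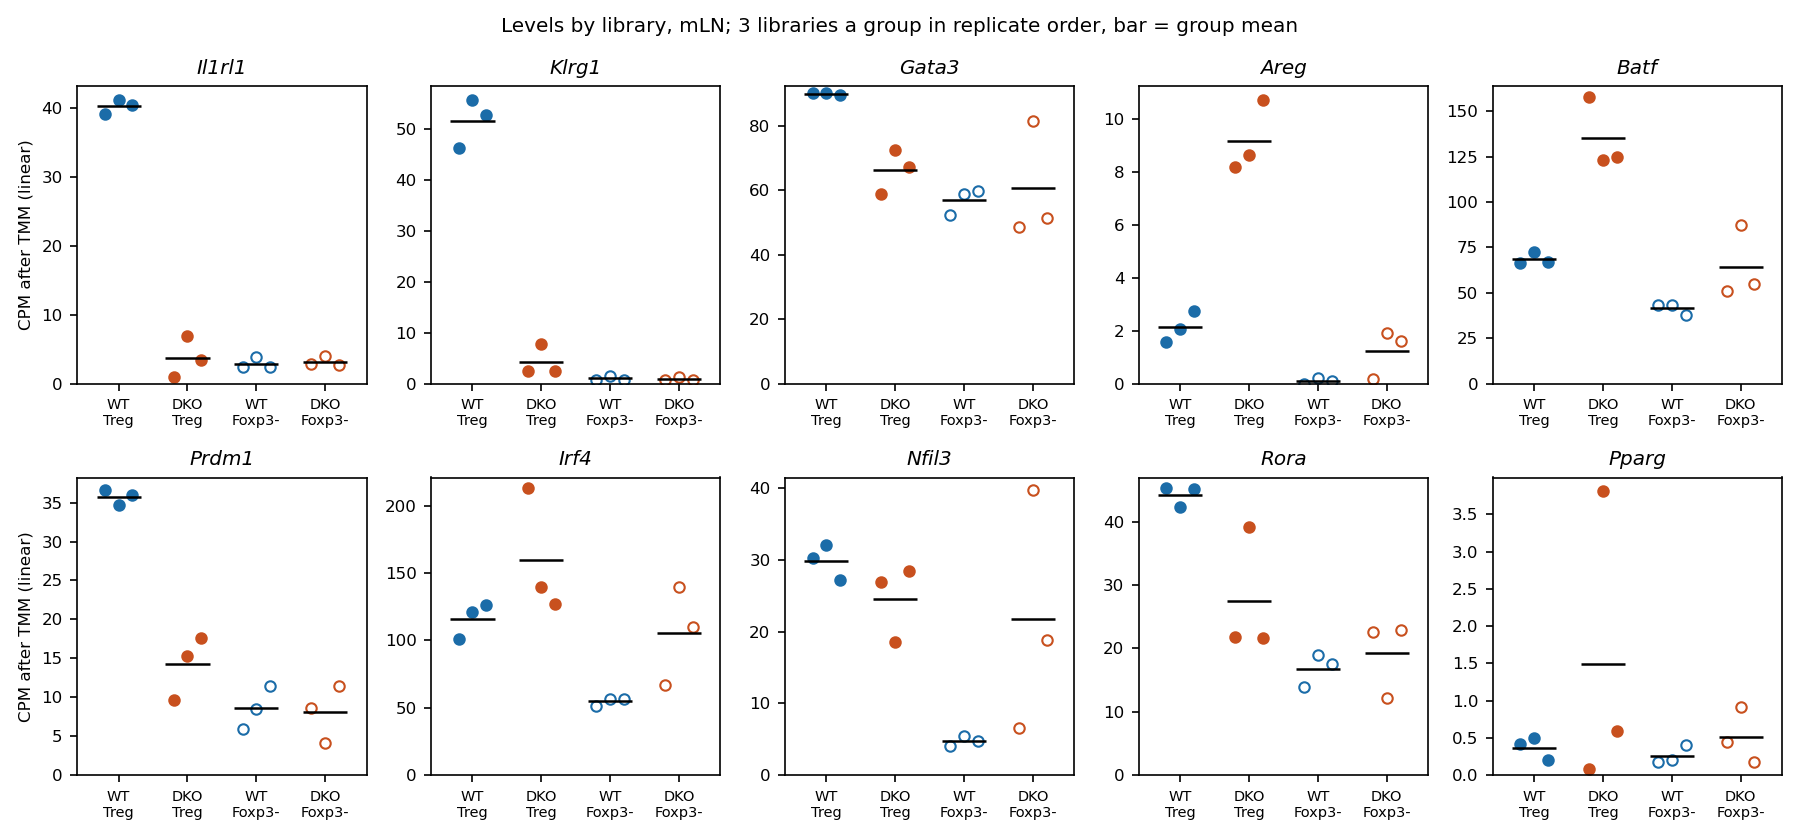
Levels of the 10 genes in mLN (y axis, CPM after TMM normalization, linear, starting at 0) in WT and DKO Treg cells (filled points) and CD4+Foxp3- cells (open points), 3 libraries a group, with the group mean as a bar. In Treg cells Il1rl1, Klrg1 and Prdm1 are called lower in DKO, and Areg and Batf higher. Of all genes, 3.43% are called lower and 8.5% higher.

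Batf and Irf4 encode factors that bind DNA together at composite sites and are required for effector Treg differentiation. Batf in mLN was 66.2, 72.7 and 67.2 CPM in WT, compared with 158, 123 and 125 CPM in DKO Treg cells, 1.97-fold higher (log2 fold change 0.98 ± 0.17). The spleen and pLN levels were 115 and 112 CPM in WT, compared with 152 and 148 CPM in DKO (0.40 ± 0.34), not called although the groups did not overlap. Irf4 was 101, 121 and 126 CPM in WT, compared with 213, 140 and 127 CPM in DKO Treg cells of mLN (0.47 ± 0.23), and 121 and 113 CPM against 130 and 164 CPM in spleen and pLNs (0.33 ± 0.49). Batf in mLN was the 1 call among these 4 comparisons.

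Prdm1, the gene of Blimp-1, a repressor that marks effector Treg cells and plasma cells, was lower in DKO Treg cells. It was 36.6, 34.7 and 36.0 CPM in WT cells of mLN and 9.70, 15.3 and 17.6 CPM in DKO, 2.52-fold lower (log2 fold change -1.33 ± 0.31). Spleen and pLN libraries held 22.7 and 22.1 CPM against 13.3 and 8.94 CPM (-1.01 ± 0.32), which was not called with all 4 groups complete and was called with only the 2 Treg groups (-1) or without DKO CD4+Foxp3- replicate 1 (-1.01) or 2 (-1), and without DKO replicate 1 in both cell types (-1.32). The groups did not overlap in either tissue. Plasma cells express Prdm1 and Irf4, and other plasma cell markers were not even among the DKO libraries. The summed level of 6 such markers in mLN Treg cells was 119 to 124 CPM in WT, compared with 120, 620 and 110 CPM in DKO replicates 1, 2 and 3. Jchain was 412 CPM in DKO Treg replicate 2 and between 1.24 and 8.89 CPM in the other Treg libraries of mLN. Prdm1 in that library was between the other DKO replicates. Among the Treg libraries of spleen and pLNs Jchain was 4.53 and 3.55 CPM in WT, compared with 88.4 and 15.4 CPM in DKO, and DKO replicate 1 held more of both Jchain and Prdm1 than DKO replicate 2. The part of plasma cell RNA in these levels was not tested.

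Gata3, which encodes the master factor of Th2 cells and acts upstream of ST2 in Treg cells, had no common direction. The mLN libraries held 90.4, 90.3 and 89.7 CPM in WT, compared with 59.0, 72.5 and 67.2 CPM in DKO Treg cells (log2 fold change -0.44 ± 0.16), without overlap and not called, with or without the fold minimum. Spleen and pLN libraries held 62.4 and 57.0 CPM in WT, compared with 116 and 58.4 CPM in DKO (0.54 ± 0.25). The difference was -0.04 without DKO Treg replicate 1 and 0.95, then called, without DKO Treg replicate 2. The genotype difference of Gata3 in mLN was thus small beside those of Il1rl1 and Klrg1 in the same libraries.

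Rora, the gene of the nuclear receptor RORα, was 45.3, 42.3 and 45.2 CPM in WT, compared with 21.8, 39.1 and 21.7 CPM in DKO Treg cells of mLN (log2 fold change -0.68 ± 0.25), where DKO replicate 2 was close to the WT libraries. It was not called by edgeR with all 4 groups, but was called with all libraries by DESeq2 (-0.68) and with only the 2 Treg groups (-0.67). Without DKO replicate 2 in both cell types, an exclusion chosen after seeing the data, it was called with -1.02, as it was without DKO Treg replicate 2 (-1.02) and without DKO CD4+Foxp3- replicate 1 or 2 (-0.70 in each). Spleen and pLN levels were 10.8 and 9.33 CPM against 11.7 and 7.85 CPM (-0.04 ± 0.35), with overlap. In WT Treg replicate 1 there, 10.8 CPM of Rora went with 9.75 TPM, but in that of mLN 45.3 CPM went with 6.48 TPM. The gene length behind Rora may thus differ between the 2 tables, and the tissues are not compared for this gene. Nfil3 was 30.2, 32.0 and 27.2 CPM in WT, compared with 26.9, 18.5 and 28.4 CPM in DKO Treg cells of mLN (-0.28 ± 0.41), and 22.2 and 18.1 CPM against 12.7 and 13.7 CPM in spleen and pLNs (-0.61 ± 0.56). Nfil3 was called in spleen and pLNs without DKO CD4+Foxp3- replicate 1 or 2 (-0.61 in each), and otherwise neither gene had a call there.

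Pparg, the gene of the lipid-sensing nuclear receptor PPARγ that is typical of adipose Treg cells, was scarce. In mLN there were 5, 6 and 2 counts in WT and 1, 53 and 7 counts in DKO Treg cells, and the log2 fold change of 1.98 ± 0.97 became -0.19 without DKO Treg replicate 2 and 2.54, then called, without DKO Treg replicate 1. There were 22 and 15 counts in WT and 13 and 3 counts in DKO of spleen and pLNs (-1.48 ± 0.70, and -2.69 without DKO Treg replicate 1), and without DKO replicate 1 in both cell types, an exclusion chosen after seeing the data, Pparg was called (-2.67). Macrophages also express Pparg, and the summed level of 9 myeloid markers was 26.8 CPM in DKO Treg replicate 2, below the 54.8 CPM of DKO Treg replicate 3 and above the 2.85 to 4.77 CPM of WT Treg cells. The part of myeloid RNA in Pparg was not tested.

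**Figure D4:**
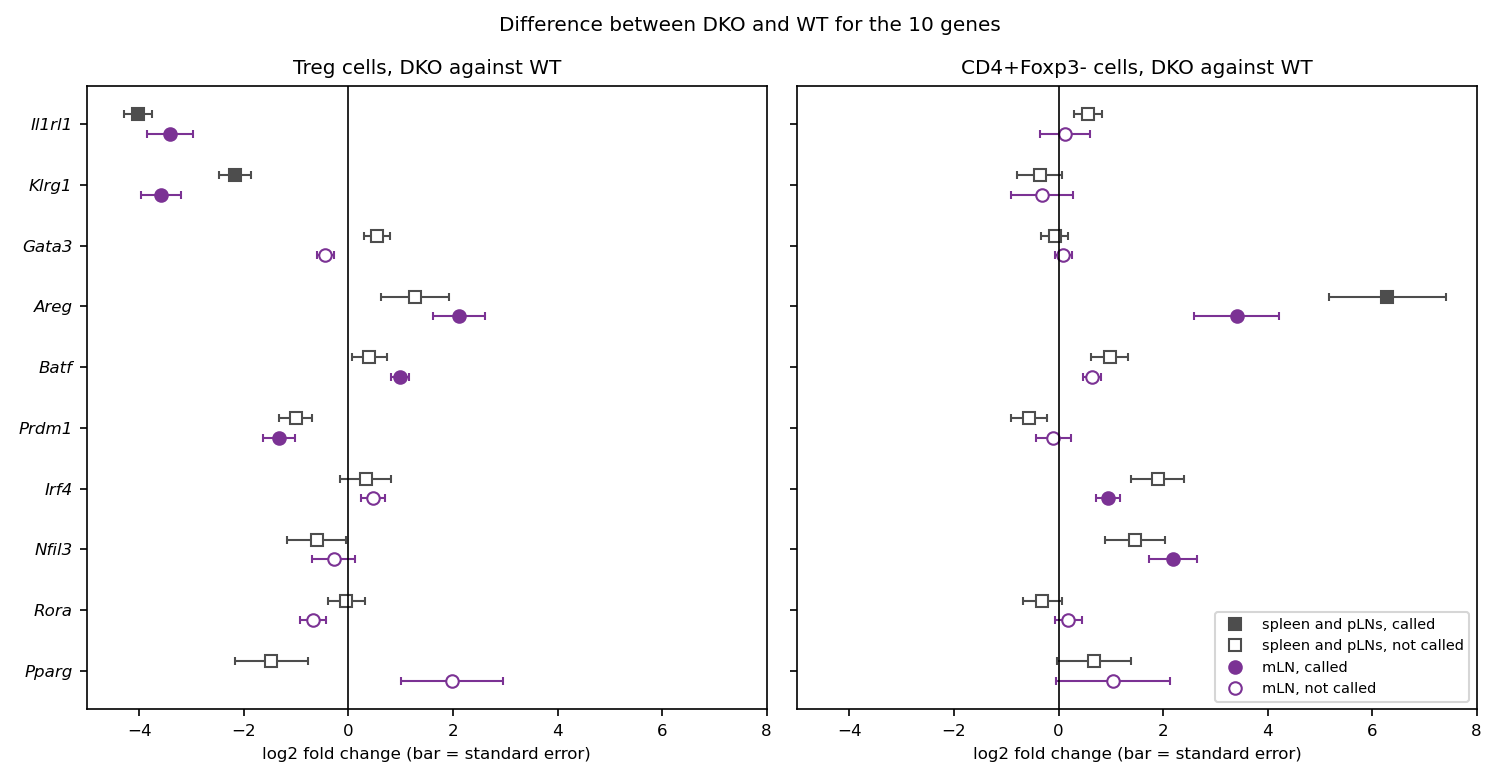
Log2 fold change of DKO against WT (x axis, bars are standard errors) for the 10 genes (y axis) in Treg cells (left) and CD4+Foxp3- cells (right), in spleen and pLNs (squares) and mLN (circles), filled where called. Il1rl1 and Klrg1 lie left of 0 in Treg cells and within 0.56 of it in CD4+Foxp3- cells, whereas Areg lies right of 0 in both cell types.

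CD4+Foxp3- cells were compared in the same way. Their libraries are separate from the Treg libraries, but in spleen and pLNs the same DKO mice supplied both cell types, so the comparisons are not independent. Of the 10, 1 was called higher in DKO cells of spleen and pLNs (Areg) and 0 lower, where 0.770% of all genes were called higher and 0.0489% lower. In mLN 3 of 10 were called higher (Areg, Irf4 and Nfil3) and 0 lower, where 3.12% were called higher and 0.304% lower. Il1rl1, Klrg1, Prdm1, Gata3, Rora and Pparg were called in neither tissue. Each of the 4 calls was lost without at least 1 of the libraries. Leaving out DKO CD4+Foxp3- replicate 2 of spleen and pLNs keeps 1 DKO library of these cells. Log2 fold changes were then 2.64 (Irf4), 2.25 (Nfil3), 1.55 (Batf) and -1.24 (Prdm1).

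Areg rose in DKO CD4+Foxp3- cells of spleen and pLNs from 1 and 0 counts in WT to 99 and 16 counts in DKO, a ratio with an exact 95% counting interval of 17.6 to 3990 (adjusted p = 0.0299, edgeR). The adjusted p was 0.0932 without DKO CD4+Foxp3- replicate 1 and ranged from 0.108 to 0.645 without any one of the 2 WT Treg, 2 DKO Treg and 2 WT CD4+Foxp3- libraries. In mLN Areg had 0, 3 and 1 counts in WT and 2, 27 and 18 counts in DKO, a ratio of 11.7 with an interval of 4.27 to 44.7 (log2 fold change 3.41 ± 0.81, adjusted p = 0.0356, edgeR). DKO replicate 1 overlapped the WT libraries. The adjusted p was 0.0923 without DKO CD4+Foxp3- replicate 2, 0.0687 without DKO CD4+Foxp3- replicate 3, from 0.0914 to 0.145 without any one WT CD4+Foxp3- library and from 0.0502 to 0.0565 without any one WT Treg library. With only the 2 groups compared it was 0.574 in spleen and pLNs and 0.204 in mLN, and with filterByExpr it was 0.261 in spleen and pLNs. Basophils and mast cells are other sources of amphiregulin, and of their markers Cpa3 was at most 0.299 CPM in all 20 libraries. Ms4a2 was at 0 counts in the CD4+Foxp3- libraries of spleen and pLNs, but in mLN it was 0.596, 0.810 and 0 CPM in WT, compared with 0.532, 0.352 and 1.15 CPM in DKO CD4+Foxp3- cells. Areg was 0.177, 1.90 and 1.59 CPM in the latter, below Ms4a2 in replicate 1 and above it in replicates 2 and 3. Kit, another gene of that list, was 62.7 CPM in DKO CD4+Foxp3- replicate 1 of spleen and pLNs and 5.48 CPM in replicate 2. The part of such cells in the Areg level was not tested.

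Nfil3 in CD4+Foxp3- cells of mLN was 4.09, 5.40 and 4.79 CPM in WT, compared with 6.56, 39.7 and 18.8 CPM in DKO, 4.57-fold higher without overlap (log2 fold change 2.19 ± 0.46, adjusted p = 0.0215, edgeR). Without DKO CD4+Foxp3- replicate 2, the highest library, it was 1.41 (adjusted p = 0.0272), and without any one WT CD4+Foxp3- library the adjusted p ranged from 0.0889 to 0.109. With only the 2 groups compared the call was lost (2.19, adjusted p = 0.146). The spleen and pLN levels were 8.89 and 8.60 CPM in WT, compared with 41.8 and 6.30 CPM in DKO (1.46 ± 0.57, adjusted p = 0.286, edgeR), so that only DKO replicate 1 was high, and without that library the difference was -0.48.

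Irf4 was 51.5, 56.5 and 56.3 CPM in WT, compared with 66.7, 140 and 110 CPM in DKO CD4+Foxp3- cells of mLN, 1.93-fold higher without overlap (log2 fold change 0.95 ± 0.23, adjusted p = 0.0403, edgeR). The adjusted p was 0.0967 without DKO CD4+Foxp3- replicate 2, 0.077 without DKO CD4+Foxp3- replicate 3, from 0.127 to 0.158 without any one WT CD4+Foxp3- library and from 0.0563 to 0.0693 without any one WT Treg library. With all libraries kept, the call was lost with only the 2 groups compared (0.95, adjusted p = 0.139). Spleen and pLN levels were 70.0 and 55.7 CPM in WT, compared with 393 and 75.7 CPM in DKO (1.90 ± 0.51, adjusted p = 0.111, edgeR), and 0.26 without DKO CD4+Foxp3- replicate 1. Plasma cell markers were high in the same libraries. Their summed level, without Irf4 and Prdm1, was 87.7 to 93.3 CPM in WT, compared with 327 and 127 CPM in DKO replicates 1 and 2 of spleen and pLNs (5 of 8 genes), and 61.9 to 71.7 CPM in WT, compared with 78.3, 707 and 128 CPM in DKO replicates 1, 2 and 3 of mLN (6 of 8 genes). Tnfrsf17 was at 0 counts in WT CD4+Foxp3- cells of spleen and pLNs, and in DKO replicate 2 of mLN Jchain was 474 CPM and Mzb1 54.9 CPM. Prdm1 did not follow: it was 8.60, 4.15 and 11.4 CPM in DKO CD4+Foxp3- cells of mLN, with the lowest value in the library richest in plasma cell markers. The part of plasma cell RNA in the Irf4 and Nfil3 levels was not tested.

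Batf in CD4+Foxp3- cells of mLN was 43.2, 43.2 and 37.9 CPM in WT, compared with 50.9, 87.5 and 54.6 CPM in DKO, higher without overlap but not called (log2 fold change 0.64 ± 0.17, adjusted p = 0.0609, edgeR). DESeq2 called it with all libraries (0.64, adjusted p = 0.0148), and with edgeR, without DKO CD4+Foxp3- replicate 1 or 3 it was called (0.78 and 0.74), and without replicate 2 it was 0.36. Only DKO replicate 1 of spleen and pLNs, with 196 CPM, stood above the 66.2 to 67.7 CPM of the other libraries (0.98 ± 0.35, adjusted p = 0.23, edgeR), and the difference was -0.01 without it. Gata3 was 52.4, 58.9 and 59.8 CPM in WT, compared with 48.8, 81.6 and 51.6 CPM in DKO CD4+Foxp3- cells of mLN (0.09 ± 0.16, adjusted p = 0.813, edgeR). Rora was 13.9, 18.9 and 17.5 CPM against 22.6, 12.1 and 22.9 CPM (0.19 ± 0.26, adjusted p = 0.733, edgeR). In these 2 genes the highest and lowest of the 6 libraries were both DKO libraries.

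Whether the effect of the genotype was the same in Treg and CD4+Foxp3- cells was described by an interaction term. This term was called in spleen and pLNs for 0.00611% of all genes, which is 1 gene of 16357, and that gene was Il1rl1 with -4.59 ± 0.38 on the log2 scale. In mLN it was called for 0.262% of all genes, and Il1rl1, with -3.54 ± 0.64, was the only 1 of the 10 members among them. The call in spleen and pLNs was lost without DKO Treg replicate 1 (-4.68), and that in mLN without any one of the 3 WT Treg or 3 WT CD4+Foxp3- libraries, DKO CD4+Foxp3- replicate 3 or DKO Treg replicate 3 (values from -3.80 to -3.46). Klrg1 had -3.26 ± 0.71 in mLN, not called. In mLN the replicate numbers paired the 2 cell types of a genotype, and with that replicate block within genotype Klrg1 was called too (-3.31), so that 2 of 10 members were, whereas in spleen and pLNs the same block left 0. Nfil3 had -2.47 ± 0.62 in mLN and -2.07 ± 0.80 in spleen and pLNs, not called in either. DESeq2 called Klrg1 (-3.29) and Nfil3 (-2.47) in mLN with all libraries. With edgeR, Nfil3 was called in mLN without DKO CD4+Foxp3- replicate 1 (-2.92) or 2 (-1.72), and without that second library Batf (0.60), Prdm1 (-1.59) and Rora (-1.15) were called too. Of all genes, 212 and 366 were called in these fits, against 44 with all libraries. Klrg1 was called in mLN without DKO Treg replicate 2 (-4.07). Leaving out DKO CD4+Foxp3- replicate 2 of spleen and pLNs keeps 1 library in that group. The values there were then -5.74 (Areg), -2.87 (Nfil3), -2.31 (Irf4) and -1.15 (Batf).

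The genes around these members were counted by lists. Of 14 genes of IL-33 receptor signalling (co-receptor, adaptors and kinases), 0 were called by edgeR or DESeq2 in DKO Treg cells of spleen and pLNs (3 had an unadjusted p under 0.05), where 3345 of all 16357 genes had one, with a median log2 fold change of -0.03, and 1 was called higher and 1 lower in mLN, also with a median of -0.03. Of the same 14, edgeR and DESeq2 called 0 in CD4+Foxp3- cells of either tissue, where 1 and 2 had an unadjusted p under 0.05, as did 2102 of 16357 and 3138 of 16784 genes in all. Of 24 other effector and tissue Treg genes, 1 was called higher and 2 lower in DKO Treg cells of spleen and pLNs (median 0.16) and 3 higher and 5 lower in mLN (median 0.18), where the shares of all genes were 1.14% higher and 0.605% lower, and 8.50% higher and 3.43% lower. In CD4+Foxp3- cells 2 of the 24 were called higher and 0 lower in spleen and pLNs (median 0.73), and 10 higher and 1 lower in mLN (median 1.31), where the median of all genes was 0. Of all genes 0.770% were called higher and 0.0489% lower in the first of these tissues, and 3.12% and 0.304% in the second. With only the 2 groups compared, 1 gene in all was called higher and 0 lower in the first, and 1 and 1 in the second. Most of these list calls were thus lost in that fit. In WT cells 14 and 21 of these 24 were called higher in Treg than in CD4+Foxp3- cells of spleen and pLNs and of mLN, and 1 and 0 lower, against 2.48% and 6.91% of all genes higher and 1.52% and 3.14% lower.

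From this list 3 genes were called in the same direction in DKO Treg cells of both tissues. Their calls were not followed gene by gene under the alternatives. In Treg cells of spleen and pLNs filterByExpr left 24 genes called in all, against 285. Penk, the gene of the opioid precursor proenkephalin, was 136 and 106 CPM in WT, compared with 1670 and 1680 CPM in DKO Treg cells of spleen and pLNs and 63.4, 54.5 and 50.4 CPM against 430, 903 and 307 CPM in mLN (log2 fold changes 3.79 ± 0.39 and 3.28 ± 0.44). Penk was also called higher in DKO CD4+Foxp3- cells of both tissues (2.79 ± 0.38, adjusted p = 0.0109, and 3.46 ± 0.48, adjusted p = 0.00434, edgeR). Nrp1, the gene of neuropilin-1, fell from 478 and 368 CPM to 157 and 201 CPM in spleen and pLNs and from 346, 341 and 308 CPM to 103, 94.4 and 114 CPM in mLN (-1.24 ± 0.27 and -1.68 ± 0.19). In CD4+Foxp3- cells of mLN Nrp1 was higher in DKO, from 23.9, 26.3 and 23.4 CPM to 32.6, 66.6 and 39.9 CPM (0.92 ± 0.20, adjusted p = 0.0234, edgeR). With only the 2 groups compared, 1 gene in all was called higher in CD4+Foxp3- cells of each tissue. Penk and Nrp1 were thus not both called in mLN in that fit. Il9r, the gene of the IL-9 receptor, was 18.1 and 18.7 CPM in WT, compared with 4.18 and 6.28 CPM in DKO Treg cells of spleen and pLNs (-1.82 ± 0.32) and 7.73, 9.10 and 8.36 CPM against 1.37, 3.02 and 1.76 CPM in mLN (-2.02 ± 0.33). It was also called lower in DKO CD4+Foxp3- cells of mLN (-1.76 ± 0.32, adjusted p = 0.0122, edgeR), and in those of spleen and pLNs it had -0.86 ± 0.31 (adjusted p = 0.242, edgeR). Between WT cell types Il9r was not called in either tissue (0.17 ± 0.30, adjusted p = 0.898, and -0.32 ± 0.30, adjusted p = 0.564, edgeR). The wider tissue Treg list thus held genes that were higher and genes that were lower, as the 10 members did.

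Resting genes and lists near single members were counted in the same way in DKO Treg cells, where 1.14% of all genes were called higher and 0.605% lower in spleen and pLNs, 8.50% and 3.43% in mLN, and 3345 of 16357 had an unadjusted p under 0.05 in spleen and pLNs. Of 12 resting Treg and naive T cell genes, 0 were called by edgeR or DESeq2 in DKO Treg cells of spleen and pLNs (3 at an unadjusted p under 0.05) and 4 were called lower in mLN (medians -0.46 and -0.69). Of 11 GATA3 and Th2 genes, 0 were called by either tool (3 at an unadjusted p under 0.05) and 3 were called lower in the same tissues (medians -0.06 and -0.64). Of 11 AP-1 and IRF family partners of Batf and Irf4, 0 were called by either tool in spleen and pLNs (4 at an unadjusted p under 0.05), and of the 10 tested in mLN 2 were called higher and 1 lower. Of 16 PPAR and lipid genes, 1 was called higher in each tissue and 0 lower. Of 12 ROR and clock genes, 1 was called lower in spleen and pLNs, and 1 higher and 2 lower in mLN. Of 8 EGF family ligands and receptors other than Areg, 0 were called by either tool in spleen and pLNs (1 at an unadjusted p under 0.05) and 1 was called higher and 1 lower in mLN.

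Patterns like that of Il1rl1 were sought over the 12 mLN libraries, leaving out genes whose mean was under 5 CPM. The highest Pearson r of log2 CPM were those of Kctd12 (0.96), Sec23a (0.95), St8sia4 (0.95), Pgrmc1 (0.94) and Inpp5k (0.93). Over the 8 libraries of spleen and pLNs the same genes had r of -0.43, 0.89, 0.61, 0.84 and 0.63, so the likeness of Kctd12 was seen in mLN only. Means of St8sia4 were 201 CPM in WT Treg cells and 97.2, 103 and 109 CPM in DKO Treg, WT CD4+Foxp3- and DKO CD4+Foxp3- cells of mLN. Among the members, Klrg1 was most like Il1rl1 (0.91 in mLN and 0.81 in spleen and pLNs), then Gata3 (0.84 and 0.11), Prdm1 (0.81 and 0.78) and Rora (0.79 and 0.52), while Areg (0.17 and 0.28), Irf4 (0.13 and 0.02) and Batf (-0.04 and 0.08) were least like it in mLN. These are descriptions over libraries that fall into 4 groups, with the WT Treg libraries apart from the rest, and the libraries of a group share their cell type and genotype.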

How the data were processed

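RNA of sorted Treg and CD4+Foxp3- cells was sequenced by the authors from stranded, poly(A)-selected libraries read from a single end. Per the labels and the methods of the study, reads were aligned to mm9 with TopHat2 2.1.1, with no more than 1 alignment kept for a read, and counted by strand on RefSeq genes with featureCounts of Subread 1.4.3-p1. The deposited counts are raw, and the deposited TPM were computed by the authors in a way that is not given in the sources used here. All columns were mapped to samples.

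Counts were tested with edgeR 4.0.16 (R 4.3.3): TMM normalization, quasi-likelihood test, all 4 groups fitted together per tissue, no replicate block, genes with a total of 1 count or more, and Benjamini-Hochberg adjustment over 16357 (spleen and pLNs) and 16784 genes (mLN). A call needed an adjusted p no higher than 0.05 together with a 1.5-fold change or more. The standard error is the absolute log2 fold change over the root of F. The labels do not say from which animals replicates came, so p values measure the spread between these samples. The workflow was tested on simulated data. DESeq2 1.42.0, its size factors, filterByExpr, blocks, 2-group fits and leaving out libraries were alternatives.

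In mLN, same-number deviations of Treg and CD4+Foxp3- cells correlated by 0.28 to 0.33 in WT and 0.15 to 0.52 in DKO, all above 0.1, so the numbers were taken to pair the cell types within a genotype. DKO CD4+Foxp3- replicate 1, however, correlated by 0.17 with DKO Treg replicate 3 and by 0.15 with its own number. WT Treg and DKO CD4+Foxp3- cells, from different mice, also matched by number in 6 of 6 samples (0.1 to 0.13), so a number need not stand for a mouse. Genes named from other lists are those called in one direction in Treg cells of both tissues, and the 5 genes most like Il1rl1. The members and lists were chosen with earlier results of these data known. Sequences are from RefSeq and coordinates of genes from GENCODE M1. Marker genes of other cell types are named only where a member is also known from that cell type, and those beside the members were chosen after their values were seen.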

Additional observations from a re-analysis of the deposited data

Results flagged for a closer look

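Il1rl1 had a larger difference between DKO and WT in Treg than in CD4+Foxp3- cells, by -4.59 on the log2 scale in spleen and pLNs and -3.54 in mLN. This interaction contains the Treg difference, which is treated as used in choosing the genes, so the values are a description and no conclusion is drawn from the test. The call was lost in spleen and pLNs with filterByExpr, with the replicate block within genotype (-4.58 in each) and without DKO Treg replicate 1 (-4.68). In mLN it was lost with filterByExpr (-3.54), without any one WT library and without DKO CD4+Foxp3- replicate 3 or DKO Treg replicate 3 (-3.80 to -3.46).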

How the results depend on the processing

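Of the 1296 values of members under alternatives, 0 turned the direction of a call, 59 lost a call and 67 gained one. The count of members called kept within 1.5 times under every alternative in 2 of 8 comparisons, DKO against WT Treg cells of mLN (5, 4 to 6 when leaving out 1 library) and WT Treg against CD4+Foxp3- cells of mLN (9, 8 to 9). When leaving out each library in turn, the counts ranged from 1 to 5 in Treg cells of spleen and pLNs (2 with all libraries), from 0 to 5 and 0 to 4 in CD4+Foxp3- cells of spleen and pLNs and of mLN (1 and 3), from 2 to 7 for the WT cell types in spleen and pLNs (3), and from 0 to 5 for the interaction in each tissue (1 and 1). With filterByExpr 1 member was called in Treg cells, 0 in CD4+Foxp3- cells and 0 for the interaction in spleen and pLNs, and 0 for the interaction in mLN, where Pparg was not tested. With only the 2 groups compared, 0 were called in CD4+Foxp3- cells of either tissue and 8 for the WT cell types of spleen and pLNs. With DESeq2's Wald test 3 were called for the interaction in mLN. With a replicate block, 2 were called for the interaction and 2 in CD4+Foxp3- cells of mLN, where Irf4 was lost, and with the replicate block within genotype 0 and 2 were called for the interaction in spleen and pLNs and in mLN. The blocks changed no other call of a member. In spleen and pLNs, with 2 pairs a group, same-number samples of different groups correlated by 0.20 to 0.31. Between WT and DKO, same-number correlations in mLN ran from -0.04 to 0.13 in Treg and from 0.02 to 0.18 in CD4+Foxp3- cells, and 4 and 5 of 6 samples correlated best with their own number, a hint from the data only. Leaving out DKO replicate 1 in both cell types of spleen and pLNs, chosen after seeing the data, keeps 1 DKO library per cell type. Members called in that fit are therefore not counted. A similar exclusion in mLN, of DKO replicate 2 in both cell types, was also chosen after seeing the data. It left 6 members called between DKO and WT Treg cells and 1 between the genotypes of CD4+Foxp3- cells. For the WT cell types 9 were called, and for the interaction 6. Of all 16518 genes in that fit, 2310, 581, 2244 and 397 were called in these 4 comparisons. With all libraries the numbers were 2001, 575, 1687 and 44, so the interaction gained calls over all genes as well.

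The count over all genes moved more. In Treg cells of spleen and pLNs 285 genes were called, 648 with DESeq2, 1256 with 2 groups, 24 with filterByExpr and 4 to 2028 when leaving out 1 library. In CD4+Foxp3- cells of spleen and pLNs 134 were called, 376 with DESeq2, 1 with filterByExpr, 1 with 2 groups and 1 to 2751 when leaving out 1 library, and in mLN 575, 929 with DESeq2, 2 with 2 groups and 57 to 1453 when leaving out 1 library. For the WT cell types of spleen and pLNs 654 were called, 379 with filterByExpr, 360 with the replicate block within genotype, 2060 with 2 groups and 144 to 1407 when leaving out 1 library, and in mLN 1687, 2544 with 2 groups. In Treg cells of mLN 2001 were called, 3249 with no fold minimum and 1325 without WT Treg replicate 2. For the interaction in spleen and pLNs 1 was called, 11 with DESeq2 and 0 to 674 when leaving out 1 library, and for the interaction in mLN 44, 270 with DESeq2 and 102 with the replicate block within genotype and 9 to 366 when leaving out 1 library. The cause was not tested. Counts of 0 to 3 limit Areg in WT CD4+Foxp3- cells, and Pparg had at most 13 counts in each mLN library but 1, DKO Treg replicate 2.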
